A study of Mus musculus with 19 samples.

Results

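Glutathione transferases and UDP-glucuronosyltransferases are the enzymes that attach glutathione or glucuronic acid to foreign compounds, drugs, bilirubin, steroids and products of lipid peroxidation, so that the conjugates can leave the hepatocyte. The genes were selected by symbol alone. Mouse symbols made up of Gst, the class letter a, k, m, o, p, t or z and a number, or of Mgst and a digit, were taken. So were symbols made up of Ugt, a digit, the letter a or b and a gene number, with or without a closing letter. This gave 46 of the 49315 genes in the count tables, namely 25 glutathione transferases and 21 glucuronosyltransferases, of which 39 had enough reads to be tested.

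The livers came from 19 female mice that were homozygous for a disrupted Gramd1c gene, which encodes the sterol transfer protein Aster-C, or wild type. The knockout is a global tm1a allele on a C57BL/6N background, and both genotypes were littermates from heterozygous parents. From 8 weeks of age the mice received a synthetic diet with 0.2% (high) or 0.02% (low) cholesterol by weight for 4 weeks, and most were fasted before necropsy. The groups were Gramd1c-/- on high cholesterol (n = 5), Gramd1c+/+ on high cholesterol (n = 5), Gramd1c-/- on low cholesterol (n = 4) and Gramd1c+/+ on low cholesterol (n = 5). Poly(A) RNA of each liver gave 1 library of 27149972 to 34669648 counts. Levels are given as TPM, which is the count divided by gene length and scaled to the same total in every mouse.

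Glutathione conjugation uses the cytosolic alpha, mu, omega, pi, theta and zeta classes (Gsta, Gstm, Gsto, Gstp, Gstt and Gstz), the mitochondrial and peroxisomal kappa enzyme (Gstk) and the membrane-bound Mgst proteins. Many of these genes respond to NRF2, the transcription factor of the electrophile response. Glucuronidation takes place in the endoplasmic reticulum, where Ugt enzymes use UDP-glucuronic acid. The Ugt1a genes form 1 locus in which each gene has its own first exon and promoter and all share the downstream exons, whereas Ugt2b genes are separate copies in a cluster. Ugt3a enzymes use other UDP sugars.

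Gramd1c itself measured 1.07 to 3.61 TPM in the 9 Gramd1c-/- livers and at least 9.56 TPM in the 10 Gramd1c+/+ livers, so the level matched the genotype label in all 19 libraries. One label field names gonadal adipose tissue and another liver. Hepatocyte markers summed to at least 74460 TPM in every library, whereas 7 adipocyte markers summed to at most 8.25 TPM in 18 libraries. The exception was replicate 2 of the Gramd1c+/+ low cholesterol group, with 139.9 TPM of adipocyte markers and 628.5 TPM of 9 adrenal cortex markers, against at most 4.66 TPM of adrenal markers in any other library. The defining adrenal genes Cyp11b1 and Cyp21a1 were among those markers, with 66.9 and 190.6 TPM. Replicate 5 of the Gramd1c-/- high cholesterol group also stood apart, at 83.1 on the first principal component (24.4% of the variance), against -46.7 to 38.4 for the other 18 libraries. Beside many of the estimates that rest on either library, the value without that library or without both is given. An estimate or interval printed without such a value may also rest on them. The hepatocyte marker sum was 74460 to 95940 TPM in Gramd1c-/- mice on high cholesterol, 77460 to 105600 TPM in Gramd1c+/+ mice on high cholesterol, 103900 to 120900 TPM in Gramd1c-/- and 89670 to 123400 TPM in Gramd1c+/+ mice on low cholesterol. The diets did not overlap in Gramd1c-/- mice and overlapped in Gramd1c+/+ mice, with the lower sums on high cholesterol. Most of this sum was Alb, at 44240 to 91160 TPM. The other 5 hepatocyte markers summed to 20000 to 45540 TPM in Gramd1c-/- and 22590 to 33230 TPM in Gramd1c+/+ mice on high cholesterol, against 25690 to 32730 TPM in Gramd1c-/- and 23750 to 37730 TPM in Gramd1c+/+ mice on low cholesterol, so that without Alb the diets overlapped in both genotypes. The highest of these sums came from replicate 5 of the Gramd1c-/- high cholesterol group. The part of either sum in the diet differences below was not tested. Kupffer cell markers peaked at 754.6 TPM in replicate 4 of the Gramd1c-/- high cholesterol group, against at most 388.1 TPM elsewhere. Sums over the 19 libraries were 77.3 to 140.1 TPM for sinusoidal endothelium, 128.4 to 262.1 TPM for stellate cells, 56.5 to 137.5 TPM for erythroid cells, 2.23 to 4.87 TPM for lymphocytes and 0 to 1.01 TPM for kidney tubule. Replicate 3 of the Gramd1c-/- high cholesterol group carried transcripts of other epithelia. Krt19 reached 119.7 TPM there, against at most 3.06 TPM elsewhere, and Epcam 15.8 TPM, against at most 2.44 TPM. The cholangiocyte markers Krt7 and Cftr were also highest there, at 3.71 and 0.162 TPM. Spp1 was highest in replicate 5 of the Gramd1c-/- high cholesterol group, at 79.1 TPM. Sox9 was highest in replicate 1 of the Gramd1c+/+ low cholesterol group, at 3.28 TPM. Of the pancreatic acinar markers, Ctrb1 measured 58.9 TPM in replicate 3 of the Gramd1c-/- high cholesterol group and at most 0.969 TPM in any other library. Cpa1, Prss2, Amy2b and Pnlip stayed at or below 0.625 TPM in all 19, and Cela1 ranged from 16.8 to 50.7 TPM. The intestinal markers Lgals2, Vil1 and Krt20 summed to 15.0 TPM in that library and to at most 1.88 TPM elsewhere. Fabp2, the remaining intestinal marker, ranged from 88.6 to 363.6 TPM and was highest in replicate 5 of the Gramd1c-/- high cholesterol group. In whole liver, fewer cells of a type and less RNA per cell cannot be told apart.

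The first question was which of these enzymes the livers expressed. Mgst1, a membrane-bound transferase of the endoplasmic reticulum and outer mitochondrial membrane, had the highest level of all members, with a mean of 2893 TPM over the 19 mice. Gstm1, the main mu class enzyme, followed at 1888 TPM, and Ugt2b5, a steroid-conjugating glucuronosyltransferase, led the Ugt genes at 948.6 TPM when counts were divided by full gene length. With unshared length only, Ugt1a1 would lead if none of its reads came from shared exons, as described below for its locus. Class sums averaged 2939 TPM for Mgst, 2388 TPM for Gstm, 2271 TPM for Ugt2b, 781.6 TPM for Gsta, 755.6 TPM for Gstz, 719.7 TPM for Gstp, 605.2 TPM for Gstt, 463.1 TPM for Ugt1a, 349.0 TPM for Ugt2a, 347.8 TPM for Ugt3a, 204.2 TPM for Gstk and 138.7 TPM for Gsto. Mgst, Gstm and Ugt2b were not separated by these means, since their ranges over the 19 mice, 2181 to 3714, 1624 to 3297 and 1723 to 3143 TPM, overlapped. The place of Ugt1a in this order holds for full gene length only. Ugt1a1 alone averaged 321.8 TPM on full length and 1859 TPM on unshared length.

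**Figure D1:**
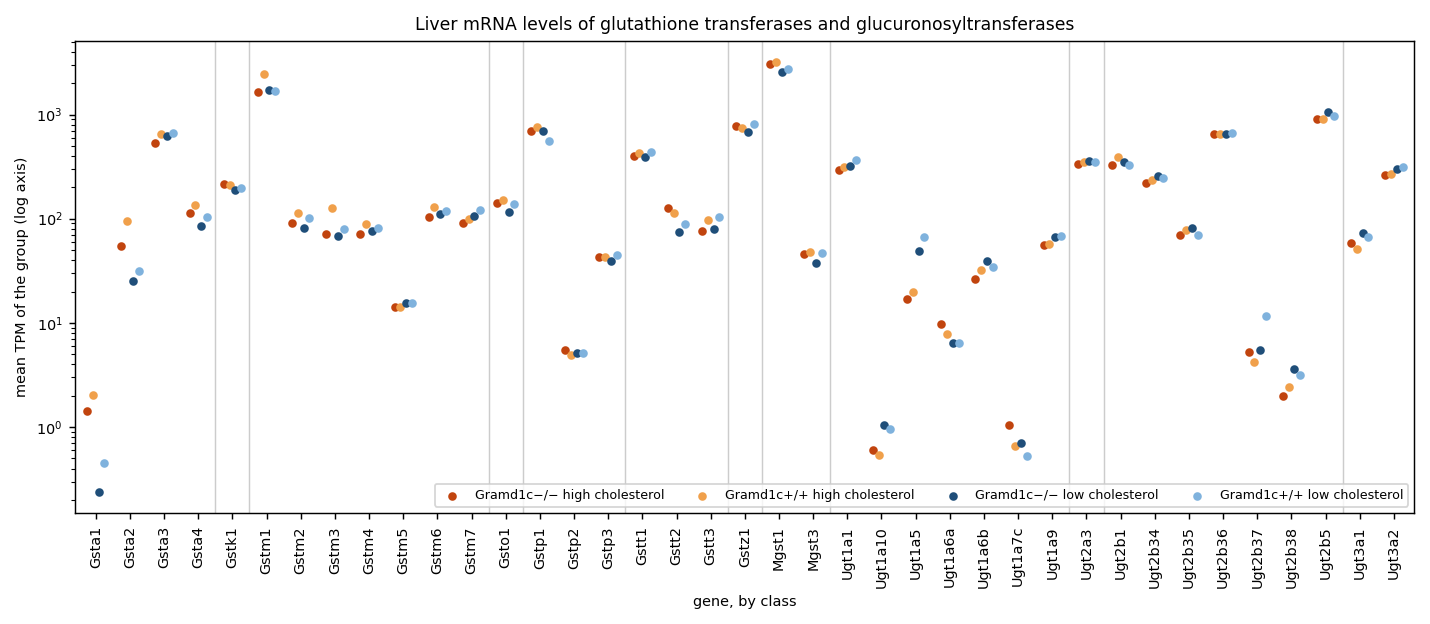
Mean TPM of each of the 39 tested genes in each of the 4 groups (log axis), ordered by class, with vertical lines between classes. The 4 group means of a gene mostly lie close together, and Gsta1, Gsta2, Ugt1a5 and Ugt2b37 show the widest spacing.

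Most classes rested on 1 gene. The leading member held on average 98.4% of the class sum for Mgst (Mgst1), 92.9% for Gstp (Gstp1), 82.8% for Ugt3a (Ugt3a2), 79.3% for Gsta (Gsta3), 78.7% for Gstm (Gstm1), 69.7% for Ugt1a (Ugt1a1, the bilirubin-conjugating enzyme) and 68.5% for Gstt (Gstt1). The Ugt2b class was the most evenly spread, with Ugt2b5 at 41.6% of the sum, followed by Ugt2b36 (651.6 TPM), Ugt2b1 (348.4 TPM) and Ugt2b34 (238.6 TPM). Ugt2a3, the only member of its class with reads, averaged 349.0 TPM. Of the single-gene classes, Gstz1, which also acts in tyrosine breakdown as maleylacetoacetate isomerase, averaged 755.6 TPM and Gstk1 204.2 TPM.

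The 7 members that were not tested were at or near the floor. Ugt2a1 and Ugt2a2 had 0 counts in all 19 libraries, which allows up to 0.11 CPM (counts scaled to library size) in the shallowest library if 3 counts are taken as the limit of a count of 0. This limit covers counting error only. Gstt4 had 2 counts in total, Ugt1a8 5, Ugt1a2 20, Mgst2 120 and Gsto2 161. Mgst2 reached its maximum of 29 counts in replicate 2 of the Gramd1c+/+ low cholesterol group, the library with adrenal and adipocyte markers.

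Sequence relatedness bears on how these counts can be read. Over the longest coding sequences in GENCODE M21, 17 of the 46 members were at least 90% identical to another member and 10 were at least 95% identical. The closest pairs were Ugt1a6a with Ugt1a6b (98.4%), Gstp1 with Gstp2 (98.1%), Gsta1 with Gsta2 (97.6%), Ugt2b38 with Ugt2b5 (97.0%) and Ugt1a10 with Ugt1a9 (95.3%). In each pair of unequal level, reads of the abundant gene could in principle be counted for the rare one, so the values of Ugt1a6a, Gstp2, Gsta1, Ugt2b38 and Ugt1a10 are uncertain in that respect. The treatment of reads that match several genes is not stated in the sources used here.

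The Ugt1a locus (GRCm38, chromosome 1, plus strand, positions 88055388 to 88220002) is the extreme case. Only 385 of the 2224 exonic bases of Ugt1a1 (17.3%) are covered by no other gene on either strand, against 892 of 2203 bases for Ugt1a5 and 809 of 2267 for Ugt1a10. The other genes include Gm20528, on the minus strand and with 0 counts in every library. Ugt1a8 shares most of its bases with Ugt1a1 and had 5 counts in all, while Ugt1a1 had 186248, so reads in the shared exons were not given to every gene that contains them. The levels within the locus therefore depend on the length used. Unshared length gives too high a level to a gene if reads of shared exons were counted for it, which is not known. Divided by the unshared length only, the mean was 1859 TPM for Ugt1a1, 154.8 TPM for Ugt1a9, 92.3 TPM for Ugt1a5, 82.9 TPM for Ugt1a6b, 15.5 TPM for Ugt1a6a and 2.16 TPM for Ugt1a10. A constant length does not alter a comparison of 1 gene between groups.

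Promoter windows are shown for the genes of the Ugt1a locus and the alpha class on which the diet comparison below turns, beside that of Ugt1a1. RefSeq windows (GRCm38.p6, 250 bases before to 50 after the start) existed for 42 of the 46 members. The following windows are shown 5′ to 3′ on the gene's strand, with matches to the 6 motifs searched in capitals.
Ugt1a5 (chr1:88165762-88166061, plus strand): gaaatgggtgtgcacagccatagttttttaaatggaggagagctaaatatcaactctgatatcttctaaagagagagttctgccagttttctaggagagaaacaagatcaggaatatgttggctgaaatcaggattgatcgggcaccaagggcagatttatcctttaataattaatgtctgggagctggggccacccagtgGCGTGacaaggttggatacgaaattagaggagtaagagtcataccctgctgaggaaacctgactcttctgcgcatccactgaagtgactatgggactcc
Ugt1a10 (chr1:88055161-88055460, plus strand): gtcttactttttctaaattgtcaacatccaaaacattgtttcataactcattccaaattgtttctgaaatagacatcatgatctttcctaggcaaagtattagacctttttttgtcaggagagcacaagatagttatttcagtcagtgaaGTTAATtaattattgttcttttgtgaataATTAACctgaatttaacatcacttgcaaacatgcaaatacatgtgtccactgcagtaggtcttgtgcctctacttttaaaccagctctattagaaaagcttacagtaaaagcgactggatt
Ugt1a1 (chr1:88211709-88212008, plus strand): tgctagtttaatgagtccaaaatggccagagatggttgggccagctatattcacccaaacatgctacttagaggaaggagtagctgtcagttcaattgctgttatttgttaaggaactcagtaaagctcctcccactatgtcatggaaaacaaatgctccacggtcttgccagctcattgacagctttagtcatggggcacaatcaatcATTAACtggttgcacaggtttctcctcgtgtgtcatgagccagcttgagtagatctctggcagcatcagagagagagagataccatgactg
Gsta1 (chr9:78230419-78230718, plus strand): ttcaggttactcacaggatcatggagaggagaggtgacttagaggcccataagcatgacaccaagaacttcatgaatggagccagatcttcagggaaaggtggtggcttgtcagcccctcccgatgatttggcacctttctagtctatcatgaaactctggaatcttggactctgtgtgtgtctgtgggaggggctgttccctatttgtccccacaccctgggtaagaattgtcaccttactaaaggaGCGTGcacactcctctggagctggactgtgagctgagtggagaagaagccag
Gsta2 (chr9:78347096-78347395, minus strand): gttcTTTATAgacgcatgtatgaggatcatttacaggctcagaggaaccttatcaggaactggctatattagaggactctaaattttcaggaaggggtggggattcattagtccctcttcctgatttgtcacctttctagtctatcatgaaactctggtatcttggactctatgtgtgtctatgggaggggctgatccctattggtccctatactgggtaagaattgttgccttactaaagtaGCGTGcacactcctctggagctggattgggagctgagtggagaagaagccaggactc

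The motifs were searched on both strands. GCGTG, the core bound by the dioxin receptor AhR, occurred in 32.4% of all 32851 windows, TGACNNNGC, the electrophile response core bound by NRF2, in 12.4%, GTTAAT, a half-site of the liver factor HNF1, in 7.1%, and TATAAA in 13.6%. The direct repeat bound by LXR (DR4) occurred in 0.0152% and the sterol response element bound by SREBP in 0.0913% of windows. Ugt1a5, Gsta1 and Gsta2 each held 1 match to GCGTG, Gsta2 also 1 to TATAAA, Ugt1a10 held 2 to GTTAAT and Ugt1a1 held 1. No window of a member held either sterol-related motif, which says nothing of the factors themselves. The windows of Gsta1 and Gsta2 were 74.6% identical, whereas Ugt1a5 was 47.7% identical to Ugt1a1 and 47.1% to Ugt1a10. A match is a description of the sequence and not a measured binding site.

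The main test compared raw counts with edgeR's quasi-likelihood method over all 15016 genes that passed the filter, with Benjamini-Hochberg adjustment and a threshold of 0.05. No member passed it in any of the 6 comparisons: Gramd1c-/- against Gramd1c+/+ on high and on low cholesterol, high against low cholesterol in each genotype and over both, and the interaction. The share of all tested genes that passed was 0.00666% for either genotype comparison, 0.313% for diet in Gramd1c-/- mice, 0.4% for diet in Gramd1c+/+ mice, 1.21% for diet over both genotypes and 0% for the interaction. At an unadjusted p below 0.05, the members numbered 3 of 39 (7.69%, against 2.36% of all genes) for genotype on high cholesterol and 1 (2.56%, against 2.6%) for genotype on low cholesterol. For diet they numbered 5 (12.8%, against 11.3%) in Gramd1c-/- mice, 6 (15.4%, against 7.82%) in Gramd1c+/+ mice and 8 (20.5%, against 18.2%) over both, and for the interaction 2 (5.13%, against 1.62%). The 3 diet counts include Gsta1, which passed the filter only through mice on high cholesterol. Such a gene had to differ between the diets, so Gsta1 raised these 3 shares, and no excess of members is read from them. For diet over both genotypes DESeq2 called 5 members (12.8%) and 3.98% of all genes, voom with sample weights 3 (7.69%) and 1.7%, and limma 1 (2.56%) and 0.966%. DESeq2 also called 1 member for diet in Gramd1c+/+ mice, where it called 0.739% of all genes. None of these tools called a member elsewhere.

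**Figure D2:**
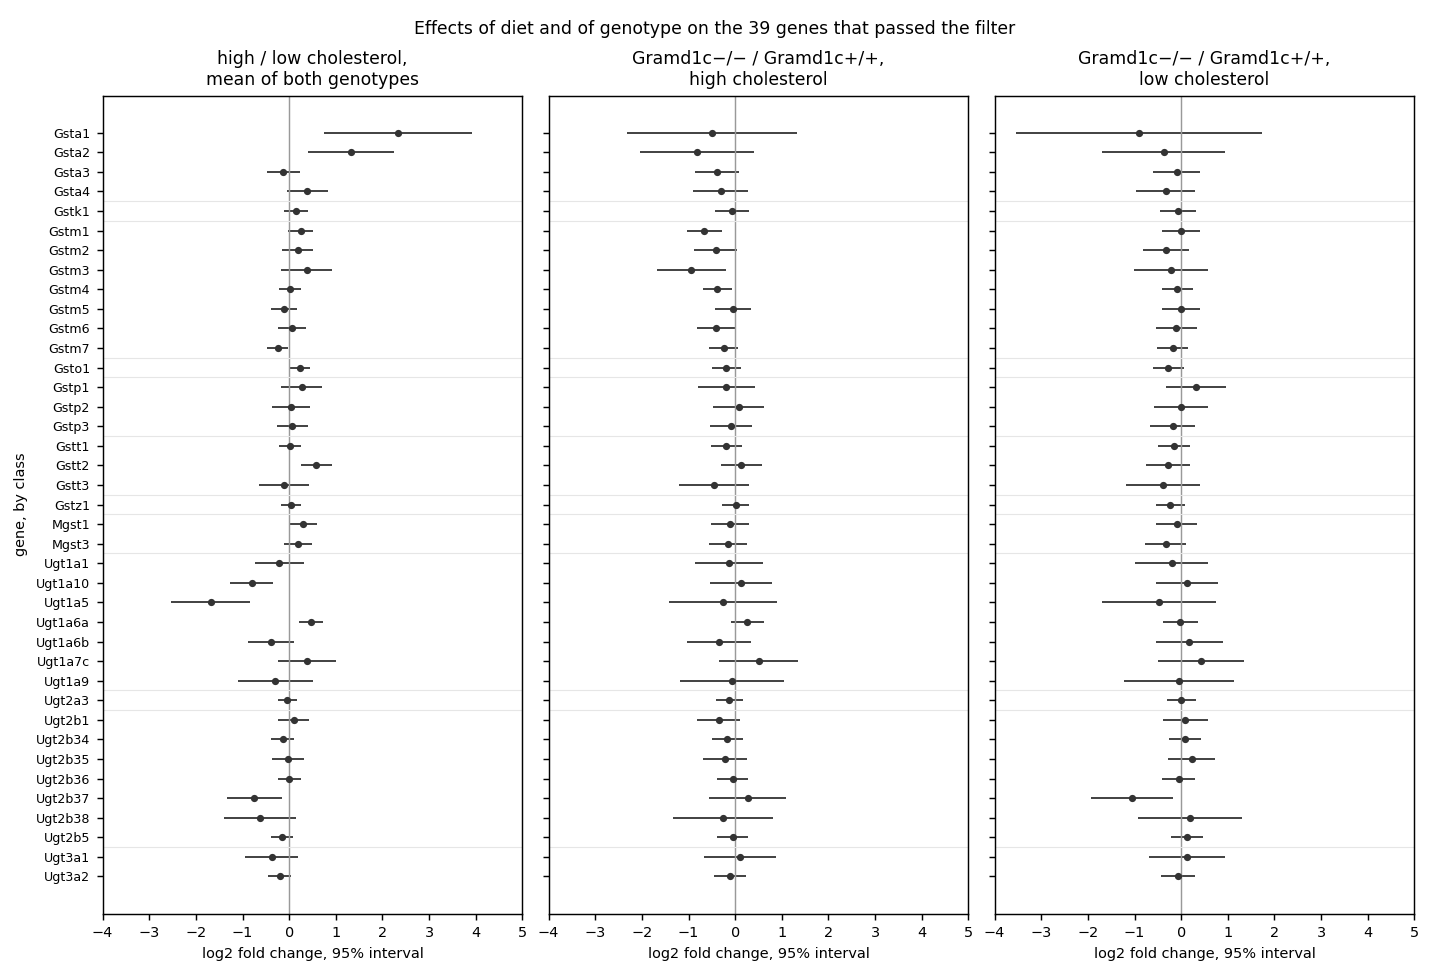
Log2 fold changes (points) with 95% intervals (bars) for the 39 tested genes: high over low cholesterol as the mean of both genotypes (left), and Gramd1c-/- over Gramd1c+/+ on high (middle) and low cholesterol (right). Intervals are wide for Gsta1 and Gsta2, and Ugt1a5 lies farthest below 0 for diet, at -1.68.

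The smallest p for diet over both genotypes among the members belonged to a gene of the Ugt1a locus. Ugt1a5 (ENSMUSG00000089943), which belongs with Ugt1a1 to the group of first exons related to that of the bilirubin enzyme, had 7.03, 27.6, 24.1, 25.4 and 1.41 TPM in Gramd1c-/- mice on high cholesterol and 11.3, 22.4, 5.86, 30.6 and 28.1 TPM in Gramd1c+/+ mice on high cholesterol. On low cholesterol it had 53.9, 54.5, 48.8 and 36.6 TPM in Gramd1c-/- mice and 89.5, 51.3, 76.2, 31.4 and 83.8 TPM in Gramd1c+/+ mice. All 10 mice on high cholesterol lay below all 9 on low cholesterol, with the highest at 30.6 TPM and the lowest low cholesterol mouse at 31.4 TPM. Of all genes tested, 0.306% separated the diets without overlap in this direction. The log2 fold change of high over low cholesterol was -1.68 ± 0.40 (SE, n = 10 and 9), with a 95% interval of -2.53 to -0.83 and an edgeR adjusted p of 0.0513, just short of the threshold. It was -1.58 ± 0.58 (SE, adjusted p = 0.368) in Gramd1c-/- mice and -1.79 ± 0.56 (SE, adjusted p = 0.357) in Gramd1c+/+ mice. The exact two-sided permutation p was 0.0159 for Gramd1c-/- and 0.00794 for Gramd1c+/+ mice, in each case the smallest that the group sizes allow. Without the 2 libraries that stood apart the value was -1.59 (adjusted p = 0.0182). Leaving out replicate 5 of the Gramd1c-/- high cholesterol group alone gave -1.54 (adjusted p = 0.0195) over both genotypes and -1.285 in Gramd1c-/- mice.

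Shares of the locus sum were compared next. Ugt1a5 made up 3.69 ± 1.73% of the Ugt1a sum in Gramd1c-/- mice and 4.44 ± 1.45% in Gramd1c+/+ mice on high cholesterol (SD, n = 5 each), against 10.1 ± 1.90% in Gramd1c-/- (SD, n = 4) and 12.0 ± 2.60% in Gramd1c+/+ mice (SD, n = 5) on low cholesterol. The ratio of Ugt1a5 to Ugt1a1 TPM was 0.0272 to 0.0836 in the 10 high cholesterol mice and 0.115 to 0.226 in the 9 low cholesterol mice. These ratios did not overlap. Ugt1a1 itself averaged 295.6 ± 155.4 TPM in Gramd1c-/- and 310.0 ± 118.4 TPM in Gramd1c+/+ mice on high cholesterol (SD, n = 5 each), against 317.3 ± 23.5 TPM in Gramd1c-/- (SD, n = 4) and 363.4 ± 68.8 TPM in Gramd1c+/+ mice (SD, n = 5) on low cholesterol. Its log2 fold change over both genotypes was -0.21 ± 0.25 (SE, edgeR adjusted p = 0.676, 95% interval -0.74 to 0.32). This Ugt1a1 estimate was -0.07 without replicate 5 of the Gramd1c-/- high cholesterol group, -0.11 without both libraries that stood apart and -0.12 without replicate 3 of the Gramd1c+/+ high cholesterol group.

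**Figure D3:**
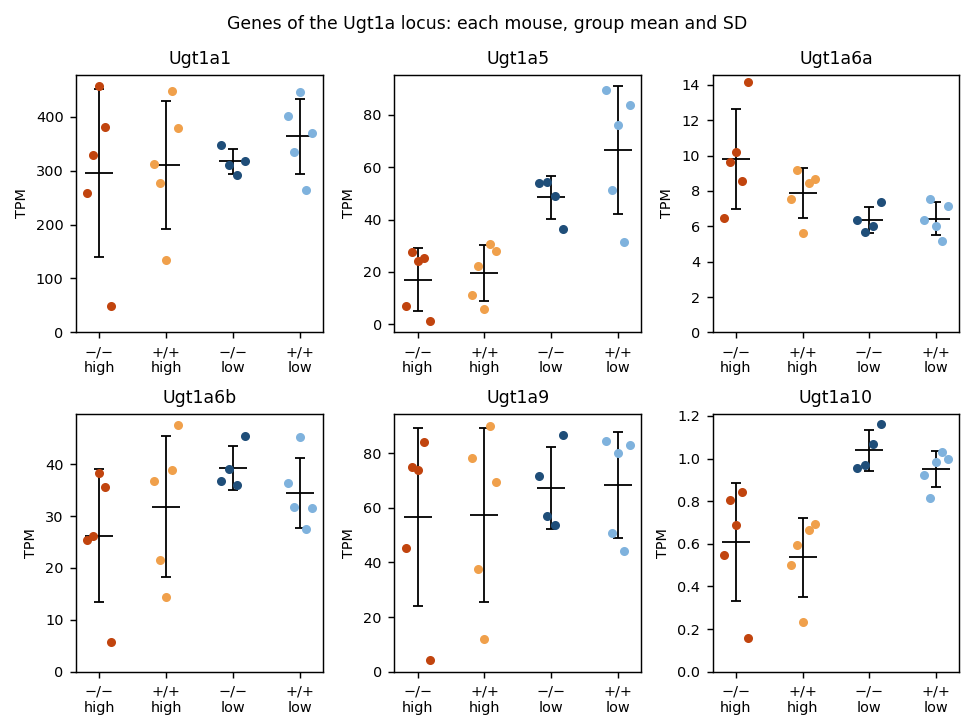
TPM of 6 genes of the Ugt1a locus in each mouse (points), with the group mean (horizontal tick) and SD (bar), for Gramd1c-/- and Gramd1c+/+ mice on high and then low cholesterol. For Ugt1a5 the 10 high cholesterol mice (1.41 to 30.6 TPM) lie below the 9 low cholesterol mice (31.4 to 89.5 TPM).

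Further genes of the locus differed in opposite directions, neither past the threshold. Ugt1a6a, which conjugates small planar phenols, had 6.48, 9.62, 10.2, 8.55 and 14.1 TPM in Gramd1c-/- mice on high cholesterol and 7.54, 9.2, 5.62, 8.47 and 8.67 TPM in Gramd1c+/+ mice on high cholesterol, against 6.35, 5.68, 6.04 and 7.36 TPM in Gramd1c-/- mice on low cholesterol and 6.35, 7.53, 6.01, 5.18 and 7.12 TPM in Gramd1c+/+ mice on low cholesterol. Its groups overlapped, and the log2 fold change over both genotypes was 0.47 ± 0.13 (SE, edgeR adjusted p = 0.0683). In Gramd1c-/- mice alone it was 0.61 ± 0.18 (SE, adjusted p = 0.288, exact permutation p = 0.0317). The highest value came from replicate 5 of the Gramd1c-/- high cholesterol group, and without both libraries that stood apart the Ugt1a6a estimate was 0.37 over both genotypes and 0.40 in Gramd1c-/- mice. Its near copy Ugt1a6b went the other way in the estimate, at -0.39 ± 0.24 (SE, adjusted p = 0.380), and at -0.30 without both libraries.

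Ugt1a10, named after its values were seen, was a low-level transcript with 5 to 34 counts per library. It had 0.545, 0.807, 0.687, 0.844 and 0.159 TPM in Gramd1c-/- mice on high cholesterol and 0.499, 0.597, 0.235, 0.665 and 0.694 TPM in Gramd1c+/+ mice on high cholesterol, against 0.954, 0.969, 1.07 and 1.16 TPM in Gramd1c-/- mice on low cholesterol and 0.924, 0.814, 0.982, 1.03 and 0.996 TPM in Gramd1c+/+ mice on low cholesterol. Within each genotype the diets did not overlap, as for 0.773% of all genes in Gramd1c-/- and 1.03% in Gramd1c+/+ mice in this direction. The log2 fold change over both genotypes was -0.81 ± 0.22 (SE, edgeR adjusted p = 0.0829), and the exact permutation p was 0.0159 in Gramd1c-/- and 0.00794 in Gramd1c+/+ mice. Without the 2 libraries that stood apart it was -0.73 (adjusted p = 0.0410). The remaining tested Ugt1a genes, Ugt1a9 at 62.1 TPM and Ugt1a7c at 0.735 TPM on average, had log2 fold changes of -0.30 ± 0.38 and 0.38 ± 0.30 (SE). For Ugt1a9 the estimate was -0.15 without replicate 5 of the Gramd1c-/- high cholesterol group, -0.21 without both libraries that stood apart and -0.18 without replicate 3 of the Gramd1c+/+ high cholesterol group. The Ugt1a7c estimate rested on replicate 3 of the Gramd1c-/- high cholesterol group, the library with transcripts of other epithelia, without which it was -0.08.

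Among the transferases, the alpha class had the largest estimates for diet, and their intervals were wide. Gsta1 and Gsta2 are near-identical inducible alpha enzymes on chromosome 9, named here after their values were seen. Gsta2 (ENSMUSG00000057933) had 17.5, 110.0, 49.1, 64.5 and 31.4 TPM in Gramd1c-/- mice on high cholesterol and 93.9, 107, 31.3, 151.8 and 89.0 TPM in Gramd1c+/+ mice on high cholesterol. On low cholesterol it had 27.1, 17.2, 6.84 and 49.4 TPM in Gramd1c-/- mice and 38.98, 10.04, 47.73, 11.66 and 47.95 TPM in Gramd1c+/+ mice. The highest values were in high cholesterol mice, but the diets overlapped in both genotypes. The log2 fold change over both genotypes was 1.33 ± 0.43 (SE, edgeR adjusted p = 0.135, 95% interval 0.41 to 2.25).

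Gsta1 had 0, 4.86, 0.233, 1.43 and 0.605 TPM in Gramd1c-/- mice on high cholesterol and 1.74, 3.13, 0.0696, 3.51 and 1.72 TPM in Gramd1c+/+ mice on high cholesterol, against 0.302, 0.0884, 0 and 0.567 TPM in Gramd1c-/- mice on low cholesterol and 0.548, 0.0772, 0.466, 0.074 and 1.07 TPM in Gramd1c+/+ mice on low cholesterol. It had 0 to 66 counts per library on high and 0 to 15 on low cholesterol. Gsta1 was the only member that passed the filter through 1 diet alone, since 6 of 10 high cholesterol libraries and 1 of 9 low cholesterol libraries reached the minimum. A gene kept in this way had to differ, so its fitted log2 fold change of 2.33 is a description and no test is drawn from it. The estimate also varied with the method, since limma on log2(TPM + 1) gave 0.81. For Gsta2 the exact permutation p for diet was 0.0317 in Gramd1c+/+ mice.

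The abundant alpha enzymes differed less. Gsta3 averaged 529.8 ± 182.4 TPM in Gramd1c-/- and 650.8 ± 94.6 TPM in Gramd1c+/+ mice on high cholesterol (SD, n = 5 each), against 624.8 ± 55.3 TPM in Gramd1c-/- (SD, n = 4) and 663.6 ± 159.8 TPM in Gramd1c+/+ mice (SD, n = 5) on low cholesterol, a diet log2 fold change of -0.12 ± 0.17 (SE, edgeR adjusted p = 0.709). This Gsta3 estimate was -0.04 without replicate 5 of the Gramd1c-/- high cholesterol group and -0.09 without both libraries that stood apart. Leaving out other single mice also moved it, to -0.22 without replicate 2 of the Gramd1c-/- high cholesterol group, -0.07 without replicate 5 of the Gramd1c+/+ high cholesterol group and -0.05 without replicate 5 of the Gramd1c+/+ low cholesterol group. Gsta4, which conjugates the lipid peroxidation product hydroxynonenal, ranged from 69.7 to 173.6 TPM on high and from 54.5 to 134.1 TPM on low cholesterol, with a log2 fold change of 0.39 ± 0.21 (SE, adjusted p = 0.318). The ratio of Gsta2 to Gsta3 was 0.125 ± 0.0612 in the 10 high cholesterol mice and 0.0426 ± 0.0247 in the 9 low cholesterol mice (SD), and the ranges overlapped.

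**Figure D4:**
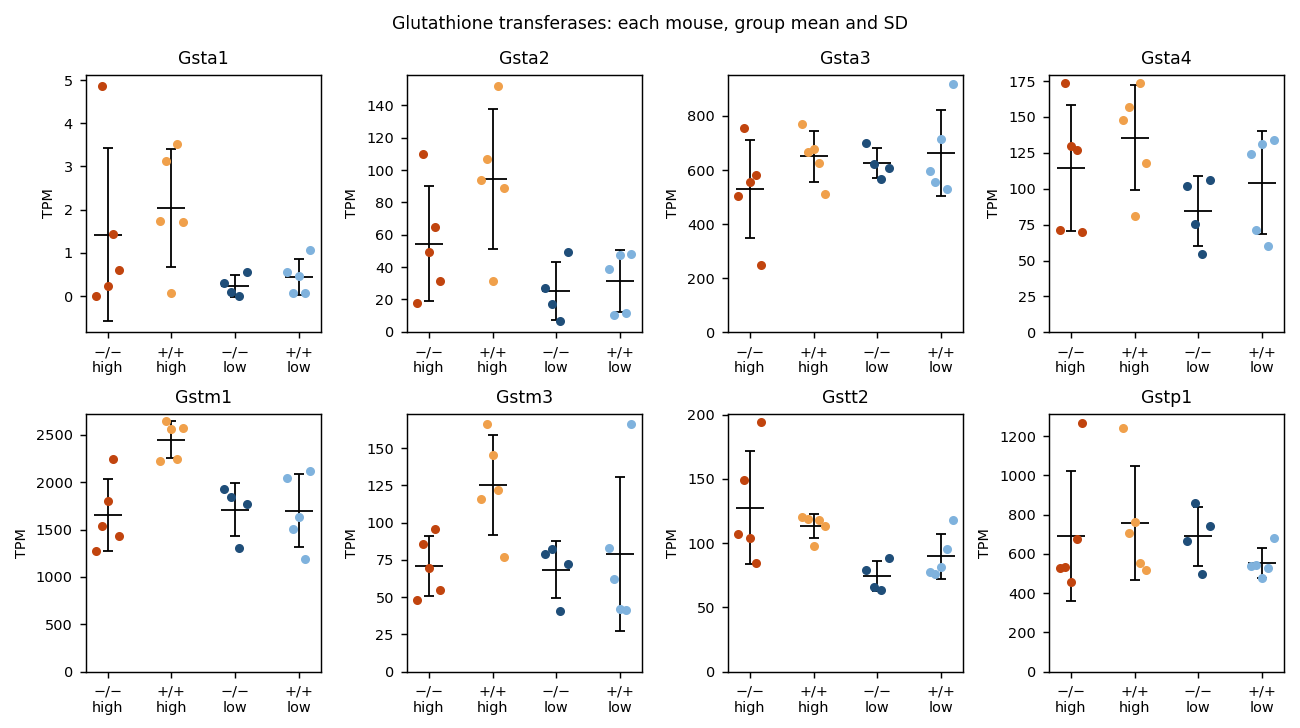
TPM of 8 glutathione transferase genes in each mouse (points), with the group mean (horizontal tick) and SD (bar), for Gramd1c-/- and Gramd1c+/+ mice on high and then low cholesterol. Gstm1 in Gramd1c+/+ mice on high cholesterol (2227 to 2647 TPM) lies above that of both low cholesterol groups (1193 to 2118 TPM).

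Gstt2, a theta class enzyme, had 107, 149, 104, 84.3 and 194 TPM in Gramd1c-/- mice on high cholesterol and 120.0, 119, 97.6, 118 and 114 TPM in Gramd1c+/+ mice on high cholesterol, against 78.8, 66.1, 63.3 and 88.4 TPM in Gramd1c-/- mice on low cholesterol and 77.8, 76.1, 81.2, 95.3 and 118 TPM in Gramd1c+/+ mice on low cholesterol. Most high cholesterol mice lay above most low cholesterol mice, with overlap in both genotypes. The log2 fold change was 0.59 ± 0.15 (SE, edgeR adjusted p = 0.0676) over both genotypes, 0.79 ± 0.23 (SE, adjusted p = 0.267) in Gramd1c-/- and 0.38 ± 0.21 (SE, adjusted p = 0.689) in Gramd1c+/+ mice. The exact permutation p was 0.0317 in Gramd1c-/- and 0.0397 in Gramd1c+/+ mice. Without the 2 libraries that stood apart the estimate for Gstt2 over both genotypes was 0.42. In Gramd1c-/- mice it was 0.55 without replicate 5 of the Gramd1c-/- high cholesterol group. Gstt1, the abundant theta enzyme, ranged from 331.3 to 464.5 TPM in Gramd1c-/- and from 380.7 to 517.8 TPM in Gramd1c+/+ mice on high cholesterol, against 360.2 to 425.3 TPM in Gramd1c-/- and 390.0 to 488.6 TPM in Gramd1c+/+ mice on low cholesterol. Its diet log2 fold change was 0.02 ± 0.11 (SE, adjusted p = 0.945), and its 19 values spanned 1.56-fold.

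The class leaders Mgst1, Gstz1 and Gstk1, overlapped between all groups. Mgst1 ranged from 2413 to 3530 TPM in Gramd1c-/- and from 2725 to 3500 TPM in Gramd1c+/+ mice on high cholesterol, against 2231 to 2829 TPM in Gramd1c-/- and 2132 to 3679 TPM in Gramd1c+/+ mice on low cholesterol, with a diet log2 fold change of 0.29 ± 0.14 (SE, edgeR adjusted p = 0.283). Gstz1 ranged from 696.1 to 946.5 TPM in Gramd1c-/- and from 597.2 to 861.2 TPM in Gramd1c+/+ mice on high cholesterol, against 615.8 to 741.6 TPM in Gramd1c-/- and 639.2 to 936.3 TPM in Gramd1c+/+ mice on low cholesterol (0.05 ± 0.10, SE, adjusted p = 0.834). Gstk1 ranged from 197.3 to 259.6 TPM in Gramd1c-/- and from 159.9 to 242.0 TPM in Gramd1c+/+ mice on high cholesterol, against 171.6 to 213.2 TPM in Gramd1c-/- and 164.8 to 223.1 TPM in Gramd1c+/+ mice on low cholesterol (0.15 ± 0.13, SE, adjusted p = 0.538, and 0.09 without replicate 3 of the Gramd1c+/+ high cholesterol group). For none of the 3 did the interval of the diet effect exclude 0, and the interval nearest to doing so was that of Mgst1, at -0.01 to 0.59.

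In the mu class, the Gramd1c+/+ mice on high cholesterol had the highest mean for several members. Gstm1 (ENSMUSG00000058135) had 1274, 1535, 1799, 2246 and 1435 TPM in Gramd1c-/- mice on high cholesterol and 2227, 2647, 2558, 2245 and 2578 TPM in Gramd1c+/+ mice on high cholesterol. On low cholesterol it had 1931, 1841, 1302 and 1768 TPM in Gramd1c-/- mice and 2044, 1507, 1632, 1193 and 2118 TPM in Gramd1c+/+ mice. All 5 Gramd1c+/+ mice on high cholesterol lay above all 9 mice on low cholesterol, and 1 of 5 Gramd1c-/- mice on high cholesterol reached their lower end. The separation of the diets in Gramd1c+/+ mice, higher without overlap, was seen in 0.693% of all genes.

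On high cholesterol, the log2 fold change of Gstm1 in Gramd1c-/- over Gramd1c+/+ mice was -0.66 ± 0.18 (SE, n = 5 each, unadjusted p = 0.00157, edgeR adjusted p = 1.0, exact permutation p = 0.0238). High over low cholesterol gave 0.58 ± 0.18 in Gramd1c+/+ mice (SE, n = 5 each, edgeR adjusted p = 0.342, exact permutation p = 0.00794). On low cholesterol Gstm1 averaged 1711 ± 280.3 TPM in Gramd1c-/- (SD, n = 4) and 1699 ± 384.3 TPM in Gramd1c+/+ mice (SD, n = 5). The interaction, which tests whether the diet effect differed between genotypes, was -0.66 ± 0.26 (SE, 95% interval -1.21 to -0.11, unadjusted p = 0.0206, edgeR adjusted p = 0.9999), so the difference did not pass over all genes.

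Other mu genes in the chromosome 3 cluster had estimates of the same sign. Gstm3 averaged 70.7 ± 20.04 TPM in Gramd1c-/- and 125.3 ± 33.45 TPM in Gramd1c+/+ mice on high cholesterol (SD, n = 5 each), with an estimate of -0.94 ± 0.35 (SE, log2), and Gstm4 averaged 71.7 ± 14.6 TPM in Gramd1c-/- and 88.1 ± 4.46 TPM in Gramd1c+/+ mice, with an estimate of -0.38 ± 0.15 (SE, log2), or -0.28 without both libraries that stood apart. Both had an edgeR adjusted p of 1.0 and an exact permutation p of 0.0238. On low cholesterol Gstm3 averaged 68.5 ± 19.1 TPM in Gramd1c-/- (SD, n = 4) and 78.9 ± 51.6 TPM in Gramd1c+/+ mice (SD, n = 5), where replicate 5 stood at 166.0 TPM. Its interaction was -0.72 ± 0.51 (SE, edgeR adjusted p = 0.9999), and -1.21 without that mouse. All 7 Gstm genes had negative estimates for genotype on high cholesterol, with a class median of -0.41, against a median of 0.01 over all genes tested. Gsta2, Gsta3 and Gsta4 were at -0.82, -0.39 and -0.31. Gsta1 passed the filter only through Gramd1c+/+ mice, since 2 Gramd1c-/- and 5 Gramd1c+/+ libraries reached the minimum. This favours a negative sign, so its estimate of -0.50 is a description and no test is drawn from it. Over all 39 members, Gsta1 among them, 31 were negative and 8 positive, with a median of -0.17, while 52.2% of all genes were positive. These genes share samples and, in part, sequence, and their signs are not independent counts. On low cholesterol 27 of 39, again with Gsta1 among them, were negative and 12 positive, with a median of -0.09, while 49.7% of all genes were positive.

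The width of the interval of the genotype effect differed among the abundant genes. For Mgst1 the 95% interval of the log2 fold change was -0.52 to 0.30 on high and -0.53 to 0.34 on low cholesterol, for Gstz1 -0.29 to 0.30 and -0.55 to 0.08, and for Ugt2b5 -0.38 to 0.27 and -0.22 to 0.47. The intervals were wider for Gstp1, at -0.81 to 0.42 on high and -0.33 to 0.96 on low cholesterol, for Ugt1a1, at -0.87 to 0.59 and -0.98 to 0.57, and for Gsta3, at -0.87 to 0.09 and -0.61 to 0.41. Within 1.5-fold in either direction were the estimates of 36 of 39 members on high and 37 of 39 on low cholesterol. On low cholesterol the smallest unadjusted p values after Ugt2b37 belonged to Gsto1, an omega class thioltransferase, and to Mgst3. Gsto1 had 124.8, 103.0, 109.5 and 124.9 TPM in Gramd1c-/- mice and 137.4, 114.3, 152.3, 125.7 and 162.1 TPM in Gramd1c+/+ mice on low cholesterol, a log2 fold change of -0.27 ± 0.16 (SE, edgeR adjusted p = 0.9995), or -0.37 without the 2 libraries that stood apart. Mgst3 had 44.7, 32.7, 39.3 and 32.4 TPM in Gramd1c-/- mice and 49.1, 45.3, 41.0, 35.0 and 64.0 TPM in Gramd1c+/+ mice on low cholesterol, a log2 fold change of -0.33 ± 0.21 (SE, adjusted p = 0.9995). The groups overlapped for both genes, and without replicate 5 of the Gramd1c+/+ low cholesterol group the Mgst3 estimate was -0.18. On high cholesterol Gsto1 averaged 142.2 ± 29.0 TPM in Gramd1c-/- and 152.5 ± 6.01 TPM in Gramd1c+/+ mice, and Mgst3 averaged 46.1 ± 6.81 TPM in Gramd1c-/- and 48.1 ± 9.72 TPM in Gramd1c+/+ mice (SD, n = 5 each). For the pi class enzyme Gstp1 the group means were 692.1 ± 331.6 TPM in Gramd1c-/- and 755.9 ± 289.5 TPM in Gramd1c+/+ mice on high cholesterol (SD, n = 5 each), and 1 mouse in each of these groups, at 1268 and 1241 TPM, lay far above the rest. On low cholesterol it averaged 691.0 ± 150.2 TPM in Gramd1c-/- (SD, n = 4) and 552.8 ± 76.2 TPM in Gramd1c+/+ mice (SD, n = 5).

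Ugt2b37, a low-level Ugt2b gene, was the member with the smallest p for genotype on low cholesterol and for diet in Gramd1c+/+ mice. It had 8.64, 6.35, 3.01, 4.95 and 3.17 TPM in Gramd1c-/- mice on high cholesterol and 5.46, 5.98, 2.74, 4.05 and 2.77 TPM in Gramd1c+/+ mice on high cholesterol. On low cholesterol it had 4.38, 4.46, 9.25 and 4.00 TPM in Gramd1c-/- mice and 7.35, 18.9, 13.4, 14.8 and 4.26 TPM in Gramd1c+/+ mice. In Gramd1c+/+ mice on low cholesterol 4 of 5 values lay above those of most other mice, and the highest, 18.9 TPM, came from the library with adrenal and adipocyte markers. The log2 fold change of Gramd1c-/- over Gramd1c+/+ mice on low cholesterol was -1.06 ± 0.42 (SE, edgeR adjusted p = 0.9995, exact permutation p = 0.127). High over low cholesterol in Gramd1c+/+ mice gave -1.41 ± 0.40 (SE, adjusted p = 0.241, exact permutation p = 0.0238), which DESeq2 called at 0.0285. The interaction was 1.33 ± 0.58 (SE, adjusted p = 0.9999). Without the library with adrenal and adipocyte markers the diet estimate was -1.24 and the genotype estimate on low cholesterol -0.89. Ugt2b37 is 94.7% identical to the far more abundant Ugt2b5, and the part of shared reads in these values was not tested.

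The remaining glucuronosyltransferases did not pass in any comparison. Ugt2b5 ranged from 760.1 to 1027 TPM in Gramd1c-/- and from 624.5 to 1229 TPM in Gramd1c+/+ mice on high cholesterol, against 877.6 to 1372 TPM in Gramd1c-/- and 809.6 to 1113 TPM in Gramd1c+/+ mice on low cholesterol. Its diet log2 fold change was -0.15 ± 0.11 (SE, edgeR adjusted p = 0.478), and -0.09 without replicate 4 of the Gramd1c-/- low cholesterol group. Ugt2a3 ranged from 242.2 to 389.4 TPM in Gramd1c-/- and from 262.2 to 457.0 TPM in Gramd1c+/+ mice on high cholesterol, against 332.6 to 365.3 TPM in Gramd1c-/- and 317.2 to 394.7 TPM in Gramd1c+/+ mice on low cholesterol, a diet log2 fold change of -0.04 ± 0.10 (SE, adjusted p = 0.867). The other Ugt2b members had diet log2 fold changes between -0.62 (Ugt2b38) and 0.10 (Ugt2b1), or -0.89 and 0.05 without the 2 libraries that stood apart. Ugt3a2, which uses other UDP sugars, averaged 264.4 ± 80.3 TPM in Gramd1c-/- and 268.6 ± 19.8 TPM in Gramd1c+/+ mice on high cholesterol (SD, n = 5 each), against 301.0 ± 17.7 TPM in Gramd1c-/- (SD, n = 4) and 312.7 ± 9.01 TPM in Gramd1c+/+ mice (SD, n = 5) on low cholesterol. In Gramd1c+/+ mice the diets did not overlap, at 248.0 to 297.3 TPM on high and 301.7 to 321.6 TPM on low cholesterol, as for 1.03% of all genes in this direction. The exact permutation p was 0.00794, the smallest that the group sizes allow. The log2 fold change was -0.18 ± 0.17 (SE, edgeR unadjusted p = 0.292, adjusted p = 0.816). On log2(TPM + 1) limma gave -0.22 for Ugt3a2 (adjusted p = 0.893). Of the 88 exact tests made over 4 comparisons, 15 gave p below 0.05, without adjustment, and 1 of these was of Gsta1. Members named by the rule gave 11 of these in 76 tests, and the 3 named after their values were seen gave the others. Many of the members named by the rule were picked for a small edgeR p in the same mice. Small exact p values were therefore favoured, and no support is drawn from their number.

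**Figure D5:**
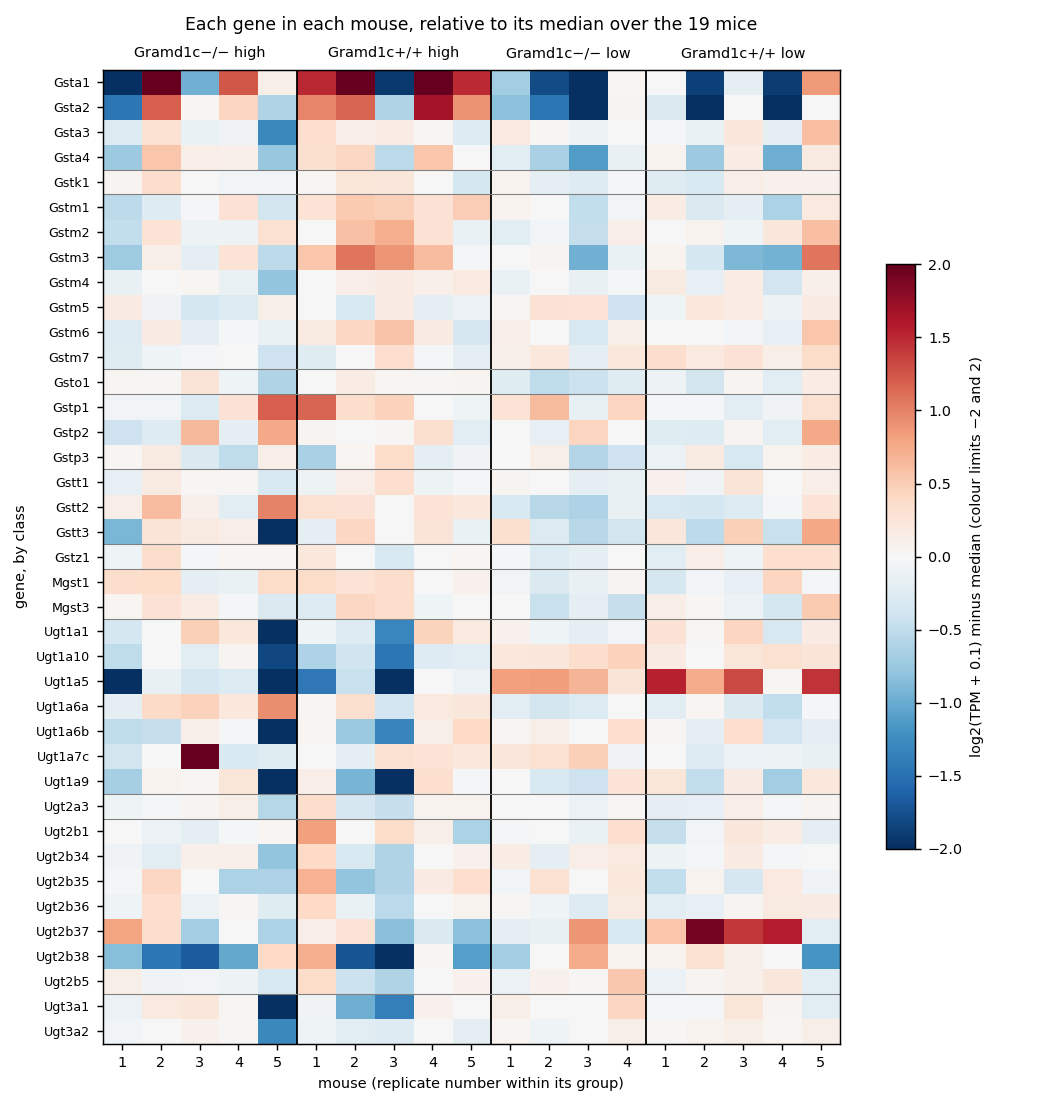
Log2(TPM + 0.1) of the 39 tested genes in the 19 mice, each minus the gene's median over all mice (blue lower, red higher, colours end at -2 and 2). Ugt1a5 is mostly blue on high and red on low cholesterol, and the fifth Gramd1c-/- mouse on high cholesterol is blue for many Ugt1a and Ugt3a genes.

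A single liver accounted for many of the lowest values. Replicate 5 of the Gramd1c-/- high cholesterol group had the lowest value of all 19 mice for 15 of the 39 members (38.5%), against 17.7% of all genes tested. Its values were 49.8 TPM for Ugt1a1, 4.45 TPM for Ugt1a9, 1.41 TPM for Ugt1a5, 7.96 TPM for Ugt3a1, 122.1 TPM for Ugt3a2, 250.2 TPM for Gsta3 and 20.1 TPM for Gstt3. The same liver was highest for Gstp1 (1268 TPM), Gstt2 (194.0 TPM) and Ugt1a6a (14.1 TPM), so the members did not all shift one way. These were 3 of the 39 members (7.69%), against 17.3% of all genes. Replicate 3 of the Gramd1c+/+ high cholesterol group was lowest for 5 of the 39 members (12.8%), against 21.3% of all genes. It was highest for 4 (10.3%), against 2.78% of all genes.

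The supply and disposal genes around these enzymes were read from lists, by the same fit. Of 21 NRF2 targets other than transferases, 2 fell on high cholesterol over both genotypes, where 1.21% of all genes passed (0.819% lower), and none rose. Pgd, of the pentose phosphate pathway, averaged 10.94 TPM in Gramd1c-/- and 10.96 TPM in Gramd1c+/+ mice on high cholesterol, against 16.55 TPM in Gramd1c-/- and 17.41 TPM in Gramd1c+/+ mice on low cholesterol, a log2 fold change of -0.64 ± 0.10 (SE, edgeR adjusted p = 0.00125). Me1, malic enzyme, averaged 94.5 TPM in Gramd1c-/- and 91.7 TPM in Gramd1c+/+ mice on high cholesterol, against 153.8 TPM in Gramd1c-/- and 139.9 TPM in Gramd1c+/+ mice on low cholesterol (-0.67 ± 0.14, SE, adjusted p = 0.0125). Both produce NADPH, and neither conjugates electrophiles. For diet over both genotypes the unadjusted p was below 0.05 for 8 of the 21, against 18.2% of all genes, with estimates of both signs among them. The list's median was -0.01, against 0.02 for all genes, and no NRF2 target passed in the other 5 comparisons.

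No gene passed in any of the 6 comparisons among 23 tested genes of glutathione supply and recycling, 15 of UDP-glucuronic acid supply, 11 transporters of conjugates, 21 regulators and 15 index targets of the xenobiotic receptors CAR, PXR and AhR. The smallest edgeR adjusted p values of these lists for diet over both genotypes were 0.144, 0.179, 0.126, 0.0860 and 0.132. The unadjusted p was below 0.05 for 1 of 23, 2 of 15, 2 of 11, 5 of 21 and 1 of 15 genes, against 18.2% of all genes. The medians of these lists were 0.11, 0.04, 0.11, -0.12 and 0.12, against 0.02 for all genes. The genes nearest the threshold were Nr1i3, which encodes CAR, at 0.67 ± 0.19 (SE, adjusted p = 0.0860), and Mafg, a small MAF partner of NRF2, at 0.42 ± 0.12 (SE, adjusted p = 0.0990). Nr1i3 averaged 50.2 TPM in Gramd1c-/- and 34.8 TPM in Gramd1c+/+ mice on high cholesterol, against 25.8 TPM in Gramd1c-/- and 27.7 TPM in Gramd1c+/+ mice on low cholesterol. Cyp3a11, the main PXR target, was at 0.43 ± 0.14 (SE, adjusted p = 0.132) and Cyp2b9, another receptor target, at -0.35 (adjusted p = 0.438). Oplah, which recycles oxoproline, was at -0.34 ± 0.12 (SE) and Glo1, glyoxalase, at -0.17. The transporter genes Abcc5 and Abcc4 were at 0.56 ± 0.18 (SE) and 0.42. Slc35b1, a carrier of the endoplasmic reticulum, was at -0.43 ± 0.16 (SE) and Slc35d1, a nucleotide sugar carrier, at 0.24. None of these passed the threshold.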

How the data were processed

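Bulk RNA sequencing of 19 livers was re-analysed, 1 library per mouse. For each liver the authors deposited a table of raw, whole-number counts by Ensembl identifier, with gene position and length. The submitters' processing notes name STAR 2.5.2b and GRCm38, while the tool that counted, its strand setting and its annotation are not stated in the sources used here. Of 49315 identifiers, 48970 were matched to a symbol. Groups came from the labels. Each library was 1 mouse, and p-values measure the spread between these mice.

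Counts were tested in R 4.3.3 with edgeR 4.0.16 (TMM scaling, filterByExpr with a minimum count of 10, robust quasi-likelihood, 1 coefficient per group over all 19 mice), which left 15016 genes with a common biological coefficient of variation of 0.255. P-values were adjusted over all of them by the Benjamini-Hochberg method and called below 0.05. Fold changes are high over low cholesterol or Gramd1c-/- over Gramd1c+/+. TPM was computed from counts and lengths, and exact two-sided permutation tests of mean TPM used scipy 1.17.1. With 5 against 5 mice their smallest p is 0.00794, with 5 against 4 it is 0.0159. Code was tested on simulated data. Alternatives were DESeq2 1.42.0, limma 3.58.1 and voom, other scalings and filters, a replicate block, a term for the run of table numbers, and leaving out each mouse.

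Members given by mouse, group mean or group range, with a fold change, were the 3 with the smallest p in each comparison and the most abundant of each class, and 3 more were named after their values were seen. From each list every called gene was named, or else genes among the 2 with the smallest p. The members and the lists (NRF2 targets, glutathione supply, UDP-glucuronic acid supply, conjugate transporters, regulators, receptor targets and cell markers) were chosen with earlier results of these data known.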

Additional observations from a re-analysis of the deposited data

Results flagged for a closer look

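A value was flagged where the highest or lowest mouse of a group lay farther from its nearest neighbour than Dixon's 95% limit allows. Of 204 groups of values tested, 16 were flagged (7.84%), and chance alone flags about 1 in 20. In 8 of the 16 the mouse was replicate 5 of the Gramd1c-/- high cholesterol group. These were Gstm4 at 46.9 TPM (others 73.4 to 83.6), Gstp1 at 1268 TPM (455.4 to 675.9), Ugt2b38 at 4.43 TPM (0.980 to 1.81), Ugt3a1 at 7.96 TPM (60.9 to 77.9), Ugt3a2 at 122.1 TPM (284.9 to 314.8), and the sums of the Gstp class at 1325 TPM, the Ugt3a class at 130 TPM and all Ugt genes at 2302 TPM (3325 to 3551). In the same group, replicate 2 was high for Gstk1 at 259.6 TPM and Gstz1 at 946.5 TPM, and replicate 3 was high for Ugt1a7c at 3.27 TPM (others 0.431 to 0.584). Replicate 3 also had the highest sum of 6 cholangiocyte markers, 216.5 TPM against at most 85.5 TPM elsewhere. Of these markers, Spp1 and Sox9 were highest in other libraries. Replicate 3 also carried pancreatic and intestinal transcripts, and the part of any of these tissues in its Ugt1a7c value was not tested.

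In Gramd1c+/+ mice on high cholesterol, replicate 3 was low for Gstt2 at 97.6 TPM. In Gramd1c-/- mice on low cholesterol, replicate 3 was high for Ugt2b37 at 9.25 TPM (others 4.00 to 4.46) and replicate 4 for the Ugt2b sum at 2918 TPM (2180 to 2276). In Gramd1c+/+ mice on low cholesterol, replicate 5 was high for Gstm6 at 163.9 TPM (99.4 to 111.7) and Gstp2 at 8.26 TPM (4.03 to 5.01).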

How the results depend on the processing

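No member passed for genotype or for the interaction under any alternative run. For diet over both genotypes the count of 0 became 1 with a minimum count of 50 or limma on log2(TPM + 1) (Ugt1a5 in each), 3 under voom with sample weights (Ugt1a5, Ugt1a10 and Gstt2), 5 under DESeq2 (these 3, Ugt1a6a and Gsta2) and 2 without the 2 libraries that stood apart, an alternative chosen after seeing the data (Ugt1a5 and Ugt1a10). Leaving out each mouse in turn gave 0 to 3, with 3 without replicate 4 of the Gramd1c-/- high cholesterol group and 1 without replicates 1, 2, 3 or 5 of that group or replicates 4 or 5 of the Gramd1c+/+ low cholesterol group. Of all genes, 0.966% passed under limma, 1.7% under voom, 3.98% under DESeq2 and 1.41% without the 2 libraries. For the minimum count of 50 and most left-out mice the calls over all genes are not given, so those member counts cannot be set against them. For diet in Gramd1c+/+ mice DESeq2 called 1 (Ugt2b37). The Ugt1a5 adjusted p for diet over both genotypes ranged from 0.00380 to 0.159 over 29 alternatives. Of the 51 log2 fold changes followed, 8 changed sign, none of them past the threshold in any fit. Gstt1 for diet over both genotypes became -0.0040 under limma, -0.032 under voom and -0.00046 without the 2 libraries that stood apart, and lay between -0.054 and 0.062 when each mouse was left out. Gstm1 for genotype on low cholesterol became 0.0045 with a minimum count of 50, 0.028 with the replicate block, 0.020 with the run term, 0.025 under limma and 0.041 under voom, and lay between -0.107 and 0.104 when each mouse was left out. Ugt2b37 for diet in Gramd1c-/- mice became 0.081 with the replicate block, 0.029 under voom and 0.043 without the 2 libraries, and lay between -0.378 and 0.296 when each mouse was left out. On leaving out mice, Gstm1 for diet in Gramd1c-/- mice lay between -0.192 and 0.00068, Ugt2b37 for genotype on high cholesterol between -0.032 and 0.475, and, for diet over both genotypes, Ugt1a7c between -0.083 and 0.478, Gstz1 between -0.0026 and 0.085 and Ugt2a3 between -0.096 and 0.0030. Ugt2a3 also became 0.029 under voom, and Ugt2b1 lay between 0.00091 and 0.185. Over all genes, calls for diet over both genotypes numbered 182, but 598 under DESeq2, 118 with the replicate block, 117 without replicate 2 of the Gramd1c-/- low cholesterol group and 296 without replicate 5 of the Gramd1c+/+ low cholesterol group. DESeq2 called 94 in place of 47 for diet in Gramd1c-/- mice and 111 in place of 60 in Gramd1c+/+ mice. The cause of these differences was not tested. The main fit did not pair the mice by replicate number. Same-numbered mice of different groups had a mean correlation of -0.0689 over 27 pairs (-0.35 to 0.286), against 0.0173 over 108 pairs of different number. These correlations cannot exclude a pairing. With the replicate block no member passed in any comparison, and Ugt1a5 was at -1.74 (adjusted p = 0.159). Shares moved with length, to 92.9% for Gsta3, 63.1% for Gstt1, 99.1% for Mgst1 and 33.2% for Ugt2b5 in CPM, and to 84.4% for Ugt1a1 with unshared length, also chosen after seeing the data.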
